A study of Zea mays with 10 samples.

Results

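The maize genes listed as grp1 (GeneID:542725) and grp3 (GeneID:101027116) carry names of glycine-rich protein genes. They are 2 of the 48174 genes in the count table and 2 of the 21048 with enough counts to be tested. They were chosen by these identifiers, after both had been seen among the named genes with the lowest captured-to-total ratio, so that ratio is described here and not tested. In the reference gene table both stand under locus numbers, LOC542725 and LOC101027116, with grp1 and grp3 as synonyms and protein_coding as their type. Neither overlaps another gene there.

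Plants hold several kinds of glycine-rich protein. Glycine-rich RNA-binding proteins join an RNA recognition motif to a glycine-rich tail and act on splicing, export and stability of RNA. In Arabidopsis some of them are controlled by the circadian clock and bind their own transcripts. Other glycine-rich proteins are structural parts of the cell wall. Transcripts of glycine-rich RNA-binding proteins are known in maize to respond to abscisic acid, and a maize gene called zmGRP3 is known for root-specific expression. Whether the row listed as grp3 is that gene, and which kind of protein each row codes for, was not tested.

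Nuclei were taken from the outermost 1 mm of seminal and primary root tips, cut from inbred B73 seedlings aged 3 days. All seedlings were kept in water for 1 h and then in 175 uM 5-ethynyl uridine (EU), a uridine analog that enters RNA as it is made, for 1 h. In the EU nascent group, EU-containing RNA was biotinylated and pulled down on streptavidin, and in the nuclear group total nuclear RNA from equally treated tissue was sequenced without pulldown, with 5 libraries each. The study set the captured RNA against the nuclear RNA as readings of transcriptional activity. The tissue is a mixture of root tip cell types, in which fewer cells of a type and less RNA per cell cannot be told apart. Nothing in the labels says what material same-numbered libraries share, so p-values measure the spread between these libraries.

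Libraries held 2391209 to 5770915 counts in EU nascent and 1323450 to 20397606 in nuclear, and the shallowest nuclear libraries were replicates 1 and 3. Levels are in CPM, a count scaled to library size after TMM normalization (trimmed mean of M values), and are not per gene length. Of 8 leaf marker genes, 6 had at most 3 counts over all 10 libraries, and the other two were pdk1, at 615.5 ± 23.1 CPM (SD) in EU nascent and 476 ± 24.3 in nuclear, and me3, at 39.74 ± 5.26 and 31.25 ± 5.22. Of 7 root tip markers listed by gene symbol, the cyclin genes cyc1, cyc2 and cyc3 and the scarecrow gene SCR had enough counts for testing. The gene wox5B had 48 counts over all 10 libraries and was not tested, and rtcs and plt2 had no count. Which gene the symbol plt2 stands for was not checked, so nothing about the tissue is read from it. Summed root tip markers were at 106 to 152 CPM in EU nascent and 105 to 136 in nuclear, and summed leaf markers, mostly pdk1, at 619 to 675 and 482 to 544.

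The transcript of grp1 was among the most abundant messages of both preparations and took a larger share of total nuclear RNA. Its level in EU nascent replicates 1 to 5 was 818.3, 937.5, 770, 913.8 and 1100 CPM. In nuclear replicates 1 to 5 it was 2031, 3282, 3053, 3589 and 4001 CPM. The groups did not overlap, and the lowest nuclear library, replicate 1, stood 1.85-fold above the highest EU nascent library, replicate 5. Replicate 5 was also the highest nuclear library. Mean levels were 907.8 ± 127 CPM (SD, n = 5) in EU nascent and 3191 ± 739 CPM in nuclear. The log2 fold change of EU nascent over nuclear was -1.81 ± 0.14 (SE of the edgeR fit), a level 3.52-fold higher in nuclear.

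Transcripts of grp3 were less abundant by count and differed between the groups by about the same ratio. Its level in EU nascent replicates 1 to 5 was 206.2, 288.5, 210.5, 310 and 339 CPM. In nuclear replicates 1 to 5 it was 512.5, 916, 1002, 1108 and 1183 CPM. All nuclear libraries again stood above all EU nascent libraries, with nuclear replicate 1 the nearest at 1.51-fold above EU nascent replicate 5. Mean levels were 270.8 ± 59.8 CPM (SD, n = 5) in EU nascent and 944.3 ± 262 CPM in nuclear. The log2 fold change was -1.80 ± 0.18 (SE), or 3.49-fold higher in nuclear. Over all tested genes, 13.6% had groups without overlap in this direction and 11.2% in the other. By edgeR's quasi-likelihood test at an adjusted p of 0.05, 40.9% were called, 21.1% lower and 19.8% higher in EU nascent, and the median log2 fold change was 0.02. Both members were chosen on this contrast, so nothing is read from their place in it.

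**Figure D1:**
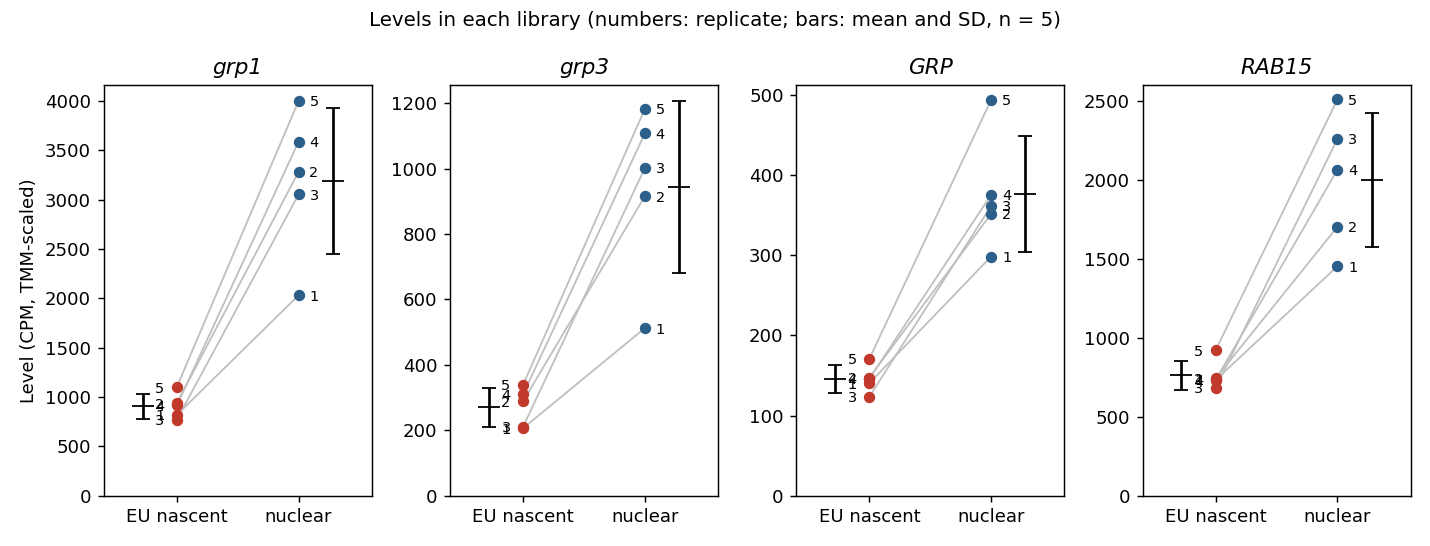
Level (CPM, linear axis from 0) of grp1, grp3, GRP and RAB15 in each of the 5 EU nascent (red) and 5 nuclear (blue) libraries, with grey lines joining libraries of the same replicate number and black bars for mean and SD. In each panel all nuclear libraries stand above all EU nascent libraries; for grp1 and grp3, nuclear replicate 1 is the lowest nuclear library (2031 and 512.5 CPM).

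By counts per library, not corrected for length, grp1 stood at rank 9 in EU nascent and rank 2 in nuclear among 34018 protein-coding genes. grp3 stood at rank 211 and rank 15. Together the genes took 0.105% to 0.153% of the counts of an EU nascent library and 0.236% to 0.486% of those of a nuclear library. Both genes thus stood higher in the nuclear list. The move of grp3 by more places began further down the list, at about the same fold change, and is not read as a larger difference. Of 103 tested genes with a nuclear mean of at least 500 CPM, 40 had a log2 fold change of -1 or lower, and the median of the 103 was -0.67. Within them grp1 and grp3 held ranks 16 and 17 from the lowest fold change. This cut on the nuclear level alone favours genes higher in nuclear. In EU nascent the mean of grp3, 270.8 CPM, was below it. Nothing is therefore read from these ranks. Of the 16 genes below grp3, grp1 included, 5 were protein-coding, 5 small nucleolar RNA, 3 small nuclear RNA and 3 long noncoding RNA genes. Over all tested genes, the members held ranks 183 and 186 from the lowest, within the lowest 0.869% and 0.884%. Low ranks follow from their choice on this contrast and are a description only.

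**Figure D2:**
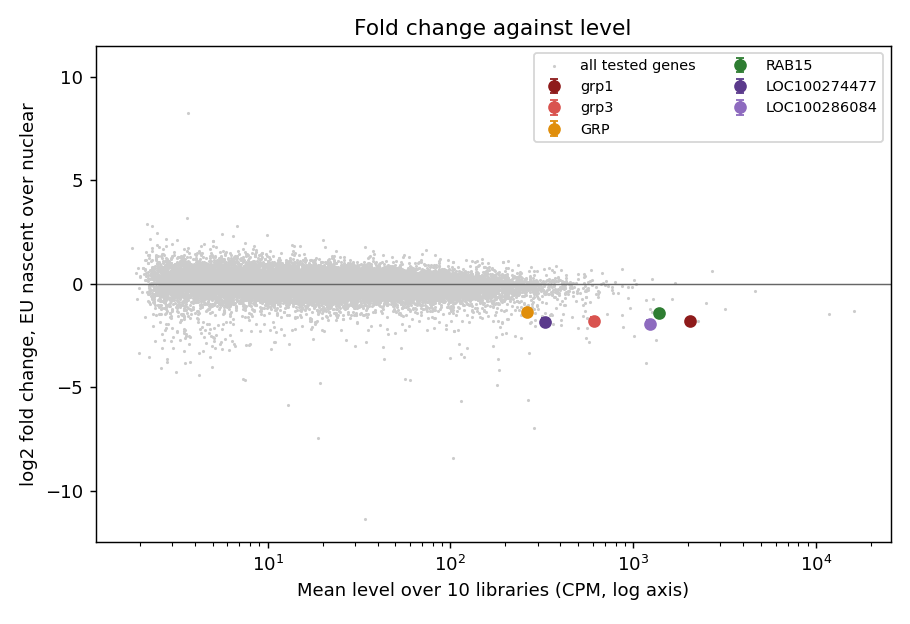
Log2 fold change of EU nascent over nuclear against the mean level over 10 libraries (CPM, log axis) for all 21048 tested genes (grey), with 6 genes described in the text in colour and bars for SE. grp1 (-1.81) and grp3 (-1.80) lie below most genes of like level, with LOC100274477 (-1.86) and LOC100286084 (-1.93) beside them and GRP (-1.37) and RAB15 (-1.39) higher.

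The 2 genes kept their proportion to each other in both preparations. The ratio of grp1 to grp3 counts in EU nascent replicates 1 to 5 was 3.97, 3.25, 3.66, 2.95 and 3.24. In nuclear replicates 1 to 5 it was 3.96, 3.58, 3.05, 3.24 and 3.38. The groups overlapped over nearly their whole range, with means of 3.41 ± 0.40 and 3.44 ± 0.351 (SD, n = 5 per group) and a difference of -0.01 in mean log2 ratio. This ratio is taken within a library and needs no scaling between libraries. It is a ratio of counts and does not set the transcripts against each other per length. Since both genes were chosen for a low fold change in the same contrast, their likeness in it is a description.

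Within same-numbered libraries, the log2 difference of EU nascent minus nuclear for grp1 was -1.31, -1.81, -1.99, -1.97 and -1.86 for numbers 1 to 5. For grp3 it was -1.31, -1.67, -2.25, -1.84 and -1.80. Number 1 had the smallest difference for both genes, and number 3 the largest. The nuclear library of number 1 was the shallowest, with 2497 counts of grp1 and 630 of grp3, whose counting error is 2.0% and 3.98%. The spread between libraries was wider than that, with a coefficient of variation for grp1 of 14.0% in EU nascent and 23.2% in nuclear, and for grp3 of 22.1% and 27.7%. Without nuclear replicate 1 the log2 fold changes were -1.94 ± 0.10 for grp1 and -1.95 ± 0.13 for grp3 (SE). The part of depth in the position of that library was not tested.

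The genes also varied together between replicates. As deviations of log2 CPM from the group mean, grp1 had -0.14, 0.06, -0.23, 0.02 and 0.29 in EU nascent replicates 1 to 5. In nuclear replicates 1 to 5 it had -0.62, 0.08, -0.03, 0.21 and 0.36. For grp3 the deviations were -0.36, 0.12, -0.33, 0.22 and 0.35 in EU nascent and -0.82, 0.01, 0.14, 0.29 and 0.38 in nuclear. Both genes were thus highest in replicate 5 of either group and lowest in nuclear replicate 1. The signs matched in 9 of 10 libraries, nuclear replicate 3 being the exception. Over the 10 libraries the deviations had a Pearson correlation of 0.953 and a Spearman correlation of 0.879, and Pearson's was 0.884 over the 8 libraries left without nuclear replicates 1 and 5, the farthest from the median of grp1. These points share library, depth and scaling, and same-numbered libraries also deviated together over all genes.

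**Figure D3:**
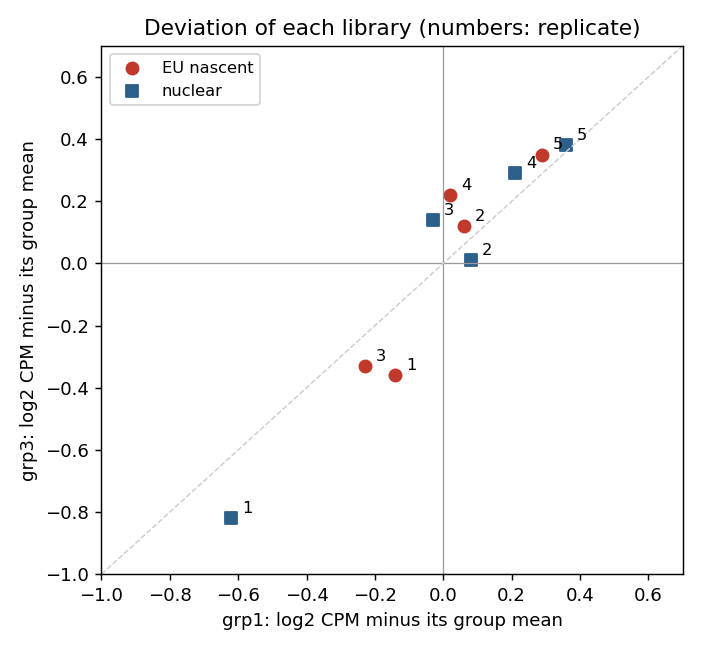
Deviation of log2 CPM from the group mean for grp1 (horizontal) and grp3 (vertical) in 5 EU nascent (circles) and 5 nuclear (squares) libraries, numbered by replicate, with the dashed line marking equal values. Nuclear replicate 1 lies lowest (-0.62 and -0.82) and the replicates 5 highest.

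Other genes followed the members from library to library more closely than the members followed each other. Among 11936 other tested genes with a mean of at least 20 CPM, grp3 held rank 7 in likeness to grp1 by these deviations, and grp1 rank 7 in likeness to grp3. The gene most like grp3 was LOC100274477, with a correlation of 0.989 for the deviations and 0.998 for log2 CPM over all 10 libraries. LOC100286084 came next with 0.978 and 0.997. The files and the gene table give no name for either, and both are listed as protein-coding. The mean level of LOC100274477 was 141.5 ± 33.8 CPM (SD, n = 5) in EU nascent and 514.8 ± 150 CPM in nuclear, with a log2 fold change of -1.86 ± 0.19 (SE). LOC100286084 was at 511.4 ± 115 and 1947 ± 575 CPM, with -1.93 ± 0.19. Like grp3, both were lowest among nuclear libraries in replicate 1, at 264.4 and 1040 CPM, and highest in replicate 5, at 631 and 2488 CPM. Both were picked for following grp3, so this is no further likeness. The third gene by deviations was LOC100272404 (0.959), which overlaps 1 other gene in the table, and by log2 CPM it was LOC100501712 (0.992). Correlations of log2 CPM over all 10 libraries include the difference between groups on which grp3 was chosen. Genes lower in EU nascent can score high by that difference alone, so nothing further is read from those values.

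For grp1, too, correlations of log2 CPM over all 10 libraries include the difference between groups on which it was chosen. The gene most like grp1 by that measure was LOC100856929 (correlation 0.994), at 53.63 ± 5.16 CPM (SD, n = 5) in EU nascent and 142.8 ± 27.1 CPM in nuclear. It was followed by LOC541649, also listed as tif4A2, a translation initiation factor 4A gene whose product is an RNA helicase, and by LOC100193061, which overlaps 1 other gene in the table, both with 0.993. tif4A2 was at 171.3 ± 7.25 CPM in EU nascent and 334 ± 50.7 in nuclear, with a log2 fold change of -0.97 ± 0.09 (SE). By the deviations, LOC100281167 (0.973), LOC100283956 (0.964) and LOC100279827 (0.962) were nearest. Their log2 fold changes were spread widely, at -1.21 ± 0.14, -0.16 ± 0.09 and -1.02 ± 0.16 (SE). LOC100283956 had 112.3 ± 7.32 CPM in EU nascent and 124.2 ± 15 in nuclear and did not pass the test (edgeR adjusted p = 0.153), though it did with the replicate number as a block (adjusted p = 0.0459) and without nuclear replicate 1 (-0.21, adjusted p = 0.0471).

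Other genes of glycine-rich protein name or of the abscisic acid response were listed by name and tested, though these lists, too, were drawn up with earlier results of the same libraries known. Besides the members, the gene table names GRP (GeneID 542562) and GRP5 (GeneID 542556). GRP was at 140.4, 147.4, 123.4, 145.9 and 170.8 CPM in EU nascent replicates 1 to 5, and at 298.6, 351.9, 361.8, 375.6 and 494.3 in nuclear replicates 1 to 5. As for grp1 and grp3, replicate 5 was highest in both groups, replicate 1 was the lowest nuclear library, and the groups did not overlap. Over all tested genes, 13.6% had groups without overlap in this direction. GRP was lower in EU nascent in 5 of 5 same-numbered pairs, which groups without overlap make certain. Its log2 fold change was -1.37 ± 0.12 (SE, edgeR adjusted p = 6.95e-08). The deviations of GRP had a correlation of 0.890 with those of grp1 and 0.821 with those of grp3 over 10 libraries. Many other genes followed the members more closely. Among the 11936 genes compared, GRP held rank 86 in likeness to grp1 and rank 276 in likeness to grp3. GRP5 had no count in any library, which allows up to 0.14 CPM in EU nascent and 0.0972 CPM in nuclear at 3 counts per group, for counting error only.

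RAB15 (GeneID 100194217), a name under which a maize glycine-rich RNA-binding protein induced by abscisic acid is known, was at 732.3, 743, 682.2, 733.3 and 920.8 CPM in EU nascent replicates 1 to 5. In nuclear replicates 1 to 5 it was at 1453, 1703, 2260, 2064 and 2510 CPM. Again the groups did not overlap, as in 13.6% of all tested genes in this direction, and replicate 5 was highest in both. RAB15 was thus also lower in EU nascent in 5 of 5 pairs, and its log2 fold change was -1.39 ± 0.12 (SE, edgeR adjusted p = 1.2e-07). The deviations of RAB15 had a correlation of 0.841 with those of grp1 and 0.833 with those of grp3. Many other genes followed the members more closely, with RAB15 at ranks 208 and 235 among the 11936 genes compared. In 3 libraries its count had a fraction, which may come from reads shared with another gene. How reads were counted is not given, and this was not tested. GRP and RAB15 passed the test under all 20 alternatives run. Whether the fold changes of the members differ from those of GRP and RAB15 was not tested, since the members were chosen by theirs.

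The abscisic acid response list was mixed. Of 33 genes listed, 24 were tested, and edgeR called 9 of them lower (37.5%) and 5 higher, with 10 uncalled. Their median log2 fold change was -0.08, and that of all tested genes, of which 21.1% were lower and 19.8% higher, was 0.02. After RAB15, the dehydrin gene dhn2, of a family of proteins made under water loss, was the lowest (-1.07 ± 0.13, SE, n = 5 per group, edgeR adjusted p = 4.96e-06). Its level was 22.93 ± 2.51 CPM (SD) in EU nascent against 46.62 ± 10.8 CPM in nuclear. The protein phosphatase 2C genes PP2C6 (0.71 ± 0.11) and PP2C30 (0.53 ± 0.11) were the highest, with edgeR adjusted p of 6.95e-05 and 0.00113. Most of the list is this phosphatase family, of which some members are known to restrain abscisic acid signalling and others act elsewhere. The best known transcripts of the response, rab17, glb1 and EMB5, which mark maturing embryos, had 4, 3 and 8 counts over all 10 libraries. The number higher was 3 without EU nascent replicate 2 or 4 or nuclear replicate 2, 4 or 5.

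SR splicing factors, RNA-binding proteins that carry RNA recognition motifs and direct splice site choice, were described for comparison. All 16 genes were tested, and edgeR called 1 lower and 4 higher and left 11 uncalled, where 40.9% of all tested genes were called. The median of their log2 fold changes was 0.11 and the range was -0.31 to 0.60. SR45_2 had 0.60 ± 0.09 and SCL30 0.59 ± 0.08, with edgeR adjusted p of 3.36e-05 and 1.06e-05. SCL25B was the lower gene, with -0.31 ± 0.10 (edgeR adjusted p = 0.0163), and it was uncalled when EU nascent replicate 2 was left out (-0.25, adjusted p = 0.0621) or library totals were used (-0.14, 0.256). With library totals in place of TMM scaling, 11 were higher and 0 lower, and the median of all tested genes moved from 0.02 to 0.19.

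Cell wall proteins of the expansin family, which loosen walls in growing cells, and hydroxyproline-rich glycoproteins, which are structural like some glycine-rich proteins, formed another list. Of 18 listed, 10 were tested, and edgeR called 2 lower and 4 higher and left 4 uncalled, where 21.1% of all tested genes were lower and 19.8% higher. Their median log2 fold change was 0.02. The alpha-expansin gene expA3 was lower (-1.48 ± 0.31, SE, n = 5 per group, edgeR adjusted p = 0.000993), at 2.942 ± 1.34 CPM against 8.414 ± 2.32 (SD). EXPA5 was lower by a log2 fold change of -0.73 ± 0.11. expA4 (0.93 ± 0.21) and expa1 (0.74 ± 0.22) were higher, with edgeR adjusted p of 0.00175 and 0.0106. Both genes named HRGP were tested. The one with GeneID 100384565 was higher, at 91.35 ± 2.36 CPM against 80 ± 5.21 (0.19 ± 0.07, edgeR adjusted p = 0.0362). That gene was uncalled in 8 of 20 alternatives, among them leaving out EU nascent replicate 2 or 4 or nuclear replicate 2, 3, 4 or 5 (adjusted p of 0.0525 to 0.0845). The one with GeneID 542371 had about the count level of grp3 in nuclear RNA (980.3 ± 163 CPM) and was at 884 ± 129 CPM in EU nascent. It did not pass the test (-0.15 ± 0.11, edgeR adjusted p = 0.291), though it did with the replicate number as a block (adjusted p = 0.037). The number higher was 2 without EU nascent replicate 2 or nuclear replicate 2, and 1 without nuclear replicate 4, where expa1 had an adjusted p of 0.0549.

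**Figure D4:**
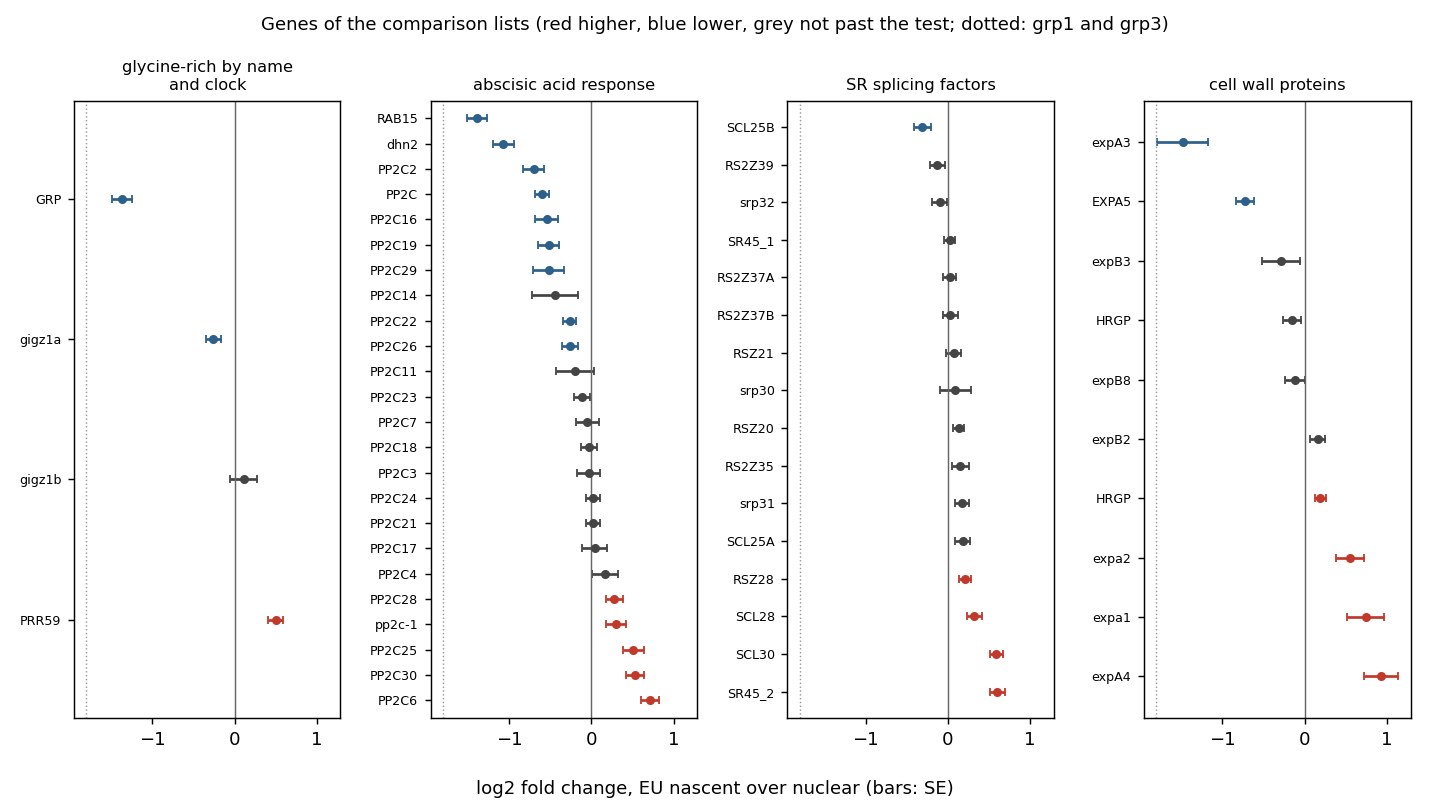
Log2 fold change of EU nascent over nuclear with SE for the tested genes of the comparison lists, coloured by the edgeR test at an adjusted p of 0.05 (red higher, blue lower, grey not past it), with a dotted line at the mean of grp1 and grp3. GRP (-1.37), RAB15 (-1.39) and expA3 (-1.48) come nearest to the line, and SR splicing factors lie between -0.31 and 0.60.

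The list of circadian clock genes held only 3, without cca1, lhy1 and toc1, which were among those planned for it. Of the 3, 1 was called lower and 1 higher, where 21.1% of all tested genes were lower and 19.8% higher. The pseudo-response regulator gene PRR59 was higher in EU nascent (0.50 ± 0.09, SE, edgeR adjusted p = 0.000207). The gigantea gene gigz1a was lower (-0.26 ± 0.09, edgeR adjusted p = 0.0202), but it was uncalled when EU nascent replicate 3 or nuclear replicate 5 was left out (adjusted p = 0.052 and 0.0775) or library totals were used (0.401). gigz1b had 0.11 ± 0.16 and did not pass (edgeR adjusted p = 0.625), though it was called higher without numbers 1 and 3 (0.22, adjusted p = 0.0383).

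Few reads were counted at the neighbours of both members. The genes beside grp3 in the gene table, LOC118471910 and LOC111589263, had 5 and 11 counts over all 10 libraries, and LOC103640730 beside grp1 had 13.5. On its other side the table lists the tRNA gene TRNAQ-CUG, not analysed here.

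Fractional counts, which may come from shared reads, were rare at the members themselves. grp1 held a fractional count in 1 library, nuclear replicate 2, where 0.5 of its 16031.5 counts was a fraction, and grp3 in 0. Whole counts can still contain reads divided between near-identical copies, whose number was not determined.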

How the data were processed

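Nuclear RNA went through DNase treatment and rRNA depletion before strand-preserving library preparation with unique identifiers on each molecule, per the labels' protocols. The submitters' processing notes list, without roles, STAR 2.7.10b, HTSeq, Trimmomatic (0.36 and 0.39), UMI-tools, SAMtools and deepTools. The genome build, annotation and strand setting are not given in the sources used here, so no coordinates or lengths are used. The values deposited by the authors were read, from their form, as estimated counts per gene without normalization and were rounded to whole numbers. The series table and the files per library differed at 0 values. Of the gene identifiers, 48127 (99.9%) matched a RefSeq gene table (Zm-B73-REFERENCE-NAM-5.0), used for names, types, overlaps and neighbours.

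All genes were fitted together with edgeR 4.0.16 under R 4.3.3, using its quasi-likelihood test (filterByExpr, TMM, Benjamini-Hochberg adjustment at 0.05), with 5 libraries per group and no block. SE is the absolute log2 fold change divided by the square root of F. Likeness used log2 CPM with a prior count of 2. The code of the test was run on simulated libraries, drawn independently and with the same dispersion for every gene. They lack the likeness of same-numbered libraries, so that run cannot judge the fit without a block. Same-numbered libraries deviated together over all genes, with correlations of 0.16 to 0.22 against at most 0.11 for other numbers, and the pairing is taken from these values. Alternatives were a replicate block, other scalings and filters, DESeq2 1.42.0, limma-voom in limma 3.58.1, rounding down and leaving out each library. Leaving out numbers 1 and 3 was added after the data were seen.

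The members and lists were chosen with earlier results of these data known. Lists planned on protein sequence could not be made, since no protein sequences were used here, and lists of SR splicing factors and cell wall proteins by gene name stand in their place. The abscisic acid list was trimmed by name of genes that share only a prefix. Named genes were the members, the genes most like them, flanking genes and the 2 most changed called members of each list each way with a mean of at least 5 CPM. rab17, glb1, EMB5, gigz1b and both HRGP genes were named outside that rule, after their values were seen.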

Additional observations from a re-analysis of the deposited data

Results flagged for a closer look

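RAB15 in EU nascent replicate 5, at 920.8 CPM, stood apart from the other 4 EU nascent libraries, which lay between 682.2 and 743 CPM. Its distance to the next library was 0.745 of the range of the group, above the limit of 0.71 for 5 libraries. Chance marks about 1 in 20 such groups. The scan covered the levels of grp1, grp3, GRP, GRP5 and RAB15 and the ratio of grp1 to grp3, each in both groups. A mark by chance somewhere in it would not be unusual. Replicate 5 was also the highest EU nascent library for grp1, grp3 and GRP, none of which passed that limit. Without it the log2 fold change of RAB15 was -1.45 ± 0.13 (SE).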

How the results depend on the processing

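The log2 fold change of grp1 stayed between -1.88 and -1.64 and that of grp3 between -1.82 and -1.63 under the alternatives that kept all numbers or left out numbers 1 and 3, and between -1.94 and -1.72 and -1.95 and -1.71 when 1 library was left out. With the replicate number as a block they were -1.79 ± 0.07 and -1.78 ± 0.08 (SE), and the count of called genes was 10446 against 8602. The block ended no call of a gene named here and added those of the HRGP gene with GeneID 542371 and LOC100283956, as given above. With library totals alone the median of all tested genes was 0.19, 2765 genes were lower and 7386 higher, the clock list had 0 lower, and SR splicing factors had 0 lower and 11 higher. The abscisic acid list had 3 higher with no count filter and with DESeq2, and the clock list 2 higher without numbers 1 and 3. Leaving out 1 library gave 3 to 5 higher for the abscisic acid list, 0 to 1 lower for SR splicing factors, 1 to 4 higher for cell wall proteins and 0 to 1 lower for the clock list. The cause was not tested. The difference in log2 ratio of grp1 to grp3 ranged from -0.07 to 0.04. Summing near-identical genes and the glycine windows were not run, for want of protein sequences, nor was leaving out genes with fractional counts. Counting error of the members was largest in EU nascent replicates 1 and 3, at 2.23% and 2.24% for grp1 and 4.44% and 4.29% for grp3. In nuclear replicates 1 and 3, the shallowest libraries, it was 2.0% and 1.43% for grp1 and 3.98% and 2.49% for grp3. The part of counting error in the results was not tested.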
